A study of Homo sapiens with 12 samples.

Results

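The genes described here are 3 FOXO transcription factors (FOXO1, FOXO3 and FOXO4) and 6 genes that FOXO factors are known to switch on (TXNIP, CITED2, BCL6, SESN3, PIK3IP1 and FBXO32). They were chosen with earlier results of these data known, were taken from the table by their symbols, and make up 9 of its 19973 genes. H460 and A549 are established human non-small cell lung cancer (NSCLC) lines, from a large cell carcinoma and an adenocarcinoma. RNA was sequenced from cells of each line that were non-treated (control) or treated for 48 h with 10 µM of ISP-I (isovalerylspiramycin I, a component of the macrolide antibiotic carrimycin), with 3 libraries in each of 4 groups and 12 in all. What vehicle, if any, the control cells received before sequencing is not given in the sources used here. The values are the deposited FPKM, that is, reads on a gene scaled for gene length and library total, and each library held 14225849 to 17874422 reads. A library's number is only a name, since the columns give the line and the treatment but not the culture, and the p-values measure the spread between these libraries, which may be technical. No 2 libraries were copies, and the H460 libraries with ISP-I differed most among themselves (chi-square per degree of freedom up to 98.7, beside up to 3.3 in A549 with ISP-I). A549 control library 3 stood apart from control libraries 1 and 2, at 28.0 and 32.5, while those 2 differed by 3.38.

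FOXO factors are the output end of the insulin and PI3K/AKT pathway that acts on transcription. While AKT is active it phosphorylates them, 14-3-3 proteins hold them in the cytoplasm, and their genes are off. When AKT activity drops they enter the nucleus, bind the sequence GTAAACA and switch on genes for cell cycle arrest, resistance to oxidants, autophagy, protein breakdown and cell death. FOXO activity is therefore set largely by phosphorylation and location, which RNA-seq does not measure. The study reported that ISP-I raised reactive oxygen species (ROS) and that this inhibited PI3K/AKT, since a ROS scavenger restored PI3K and AKT protein. By western blot in both lines, total and phosphorylated AKT fell with ISP-I, while total and phosphorylated FOXO1 and FOXO3a rose. FOXO1 and FOXO3 were also in its heat map of RNA levels. The comparison of the groups here asks only which FOXO genes and target genes differed in RNA level after the treatment.

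The labelled tissue was checked against marker genes. The summed level of 5 epithelial markers was 355.5 to 431.6 FPKM in H460 controls and 327.3 to 414.9 FPKM in H460 with ISP-I. In A549 it was 924.1 to 1252 FPKM in controls and 628.1 to 659.2 FPKM with ISP-I, and the part of this fall in the results below was not tested. CDH1, the adhesion protein of epithelial cells, was listed at 0 in all H460 controls, and EPCAM, another of the 5, was no higher than 0.148 FPKM in any H460 library. Markers of lung identity were nearly absent, with a sum of 5 markers no higher than 0.332 FPKM in any library. The sum of 9 markers of other cell types was low but moved with ISP-I in A549, from 1.84 to 2.35 FPKM over the controls to 3.72 to 4.25 FPKM over the treated libraries, and lay between 0.946 and 2.27 FPKM in H460. In A549, 2 of the 3 of these markers that were tested passed higher. They were ACTA2, the actin of smooth muscle and myofibroblasts, with means of 1.17 and 2.69 FPKM, and VWF, an endothelial gene, with 0.00218 and 0.303 FPKM. Their means differed by more than 2-fold, but on the log2(FPKM + 1) scale of the test, which shrinks changes of low genes, both changes were under 2-fold. Of the defining immune markers, CD3E was at 0 in every library and PTPRC was no higher than 0.0368 FPKM. The part of these markers in the results below was not tested.

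The promoters of the genes were searched for the letters of the FOXO site, GTAAACA. RefSeq starts (GRCh38.p14) were found for 8 of the 9 genes, with 16 starts between them, and each was searched from 250 bases before to 50 bases after the start, on both strands. The letters GTAAACA stood in 3.42% of all 35116 promoters of the same length, and the shorter core TAAACA, which every GTAAACA contains, in 12.3%. The E-box CACGTG, bound by the glucose-sensing factor pair of MondoA or ChREBP with MLX that is known for driving TXNIP, stood in 7.26%. The windows of 30 bases around the matches are shown 5′ to 3′ on the strand of the gene, with the match in capitals, so that the site can be set beside what each gene did.
TXNIP: tcgggctcctgGTAAACAaggaccgggcag
FOXO4: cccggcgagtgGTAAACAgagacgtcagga
PIK3IP1: taaagagaggcTGTTTACcagaacagcata
FOXO3: cgagcgaaacaTAAACAaacgcacgcacac
CITED2: agcctctgcagCACGTGccgcgggcggcgg

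The TXNIP window (chr1:145996685-145996714, minus strand) begins its match 124 bases before the start and lies outside every transcript of the gene in GENCODE 44. In FOXO4 (chrX:71095863-71095892, plus strand) the match begins 23 bases after the start, in the untranslated part of an exon. The PIK3IP1 window (chr22:31292454-31292483, minus strand) belongs to the second of its RefSeq starts and holds GTAAACA on the opposite strand, 16 bases after the start in the untranslated part of an exon. FOXO3 had only the core, 233 bases before the second of its starts (chr6:108560673-108560702, plus strand). CITED2 had no forkhead core but an E-box 153 bases before its start (chr6:139374783-139374812, minus strand). CACGTG was not found in the windows of TXNIP. Only these exact letters were searched, so other forms of the FOXO site or the E-box would have been missed. Sites outside the windows would also have been missed. Binding was not measured, and a match does not show it. No match to any of these letters was found in the windows of FOXO1, BCL6 and SESN3. As the values below show, the 3 genes with the full GTAAACA did not move together: TXNIP rose in both lines, FOXO4 fell in H460, and PIK3IP1 did not pass the test in either. PIK3IP1 had only 3 to 15 reads in each library, so a change could easily be missed. Whether FOXO factors acted through any of these sites was not tested.

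In H460, RNA of FOXO3, TXNIP and CITED2 was more than 10 times higher with ISP-I than in controls, as was FBXO32, which was under 1 FPKM in all H460 libraries and had 10 reads in the controls. FOXO1 and BCL6 were nearly 3 times as high, and FOXO4 was almost 4 times lower. In A549 only FOXO3, TXNIP and CITED2 of the 9 genes passed the test at a change of more than 2-fold. Differences were tested with limma on log2(FPKM + 1), adjusted by Benjamini-Hochberg over all genes tested, and a gene was called when its fold change on that scale was over 2 and its adjusted p under 0.05. That scale draws the changes of genes near or under 1 FPKM toward 0, so the ratio of the mean FPKM is given beside most log2 values. A change said to be under 2-fold is under 2-fold on that scale.

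Of the 9 genes, 6 were called in H460 (5 higher and 1 lower), where 25.7% of the 13423 genes tested were called, 10.5% higher and 15.2% lower. In A549, 3 were called, all higher, against 7.71% of 13705 genes tested, 4.2% higher and 3.51% lower. SESN3 was too low in A549 to be tested there (a mean of at least 0.1 FPKM was asked for). The same 3 genes, FOXO3, TXNIP and CITED2, were called higher in both lines, which held for 2.78% of the 12708 genes tested in both. Because the 9 genes were chosen with earlier results of these data known, these counts are a description and not a test of enrichment. The median log2 change over all genes was -0.15 in H460 and 0.02 in A549. Of the H460 calls 40.8% were higher, and 56.4% were when FPKM was first divided by median-of-ratios factors, which brought that median to 0.01. In bulk RNA, a smaller share of cells of one kind and less RNA of a gene per cell cannot be told apart.

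**Figure D1:**
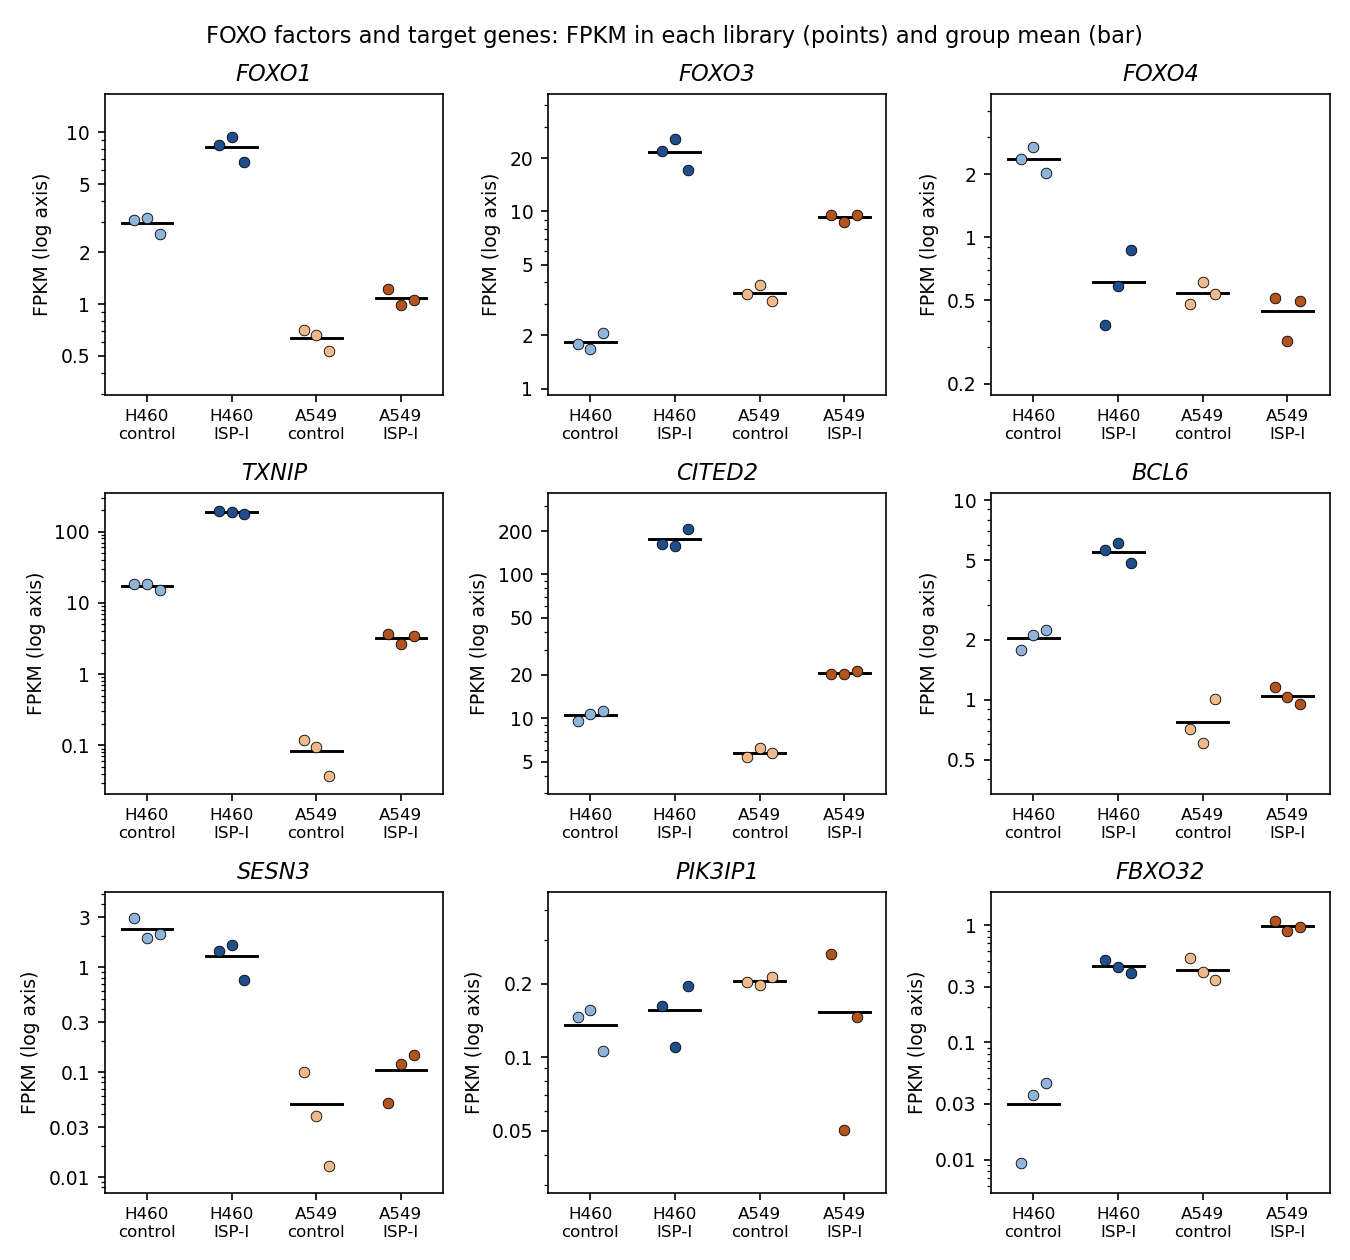
FPKM (log axis, scaled separately for each gene) of the 9 genes in each of the 12 libraries, with points for libraries and bars for the means of the 4 groups of 3. FOXO3, TXNIP and CITED2 lie higher with ISP-I in both lines without overlap, FOXO4 drops in H460 to about its level in A549, and PIK3IP1 stays below 0.3 FPKM everywhere.

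FOXO3 (chr6:108559835-108684774) is the family member best known for answering stress and loss of AKT signalling. Its level in H460 controls was 1.79, 1.67 and 2.06 FPKM, and with ISP-I it was 21.8, 25.7 and 17.2 FPKM. The lowest treated library thus lay far above the highest control. The mean level went from 1.84 to 21.6 FPKM (SD 0.199 and 4.25, n = 3 each), a ratio of 11.7, and the log2 change was 2.98 (SE 0.154, limma adjusted p = 1.27e-06).

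In A549 controls FOXO3 measured 3.42, 3.84 and 3.13 FPKM, and with ISP-I it measured 9.59, 8.74 and 9.59 FPKM. These groups did not overlap either, and the mean rose 2.69 times, with a log2 change of 1.21 (SE 0.0865, limma adjusted p = 1.34e-05). FOXO3 was the only FOXO gene called in both lines. Ordered by mean, its level was lowest in H460 controls, then A549 controls, A549 with ISP-I and H460 with ISP-I, and no neighbours in that order overlapped. The untreated H460 level was thus below that of untreated A549, and the treated H460 level above that of treated A549.

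FOXO3 has a partly identical copy, FOXO3B on chromosome 17, and reads from the stretches they share could be counted on either. In the reference, 15.3% of all 150-base windows of FOXO3 and 18.4% of those of FOXO3B occur in both, and with windows of 50 bases the share of FOXO3 is 35.6%. FOXO3B itself had a mean of 1.76 FPKM in H460 controls and 2.31 FPKM with ISP-I, which did not pass the test (limma adjusted p = 0.103). In A549 it went from 1.97 to 3.69 FPKM, a log2 change of 0.66 (limma adjusted p = 0.0005) and under the fold required for a call. How shared reads were assigned is not given in the sources used here, so the split between the 2 genes is uncertain.

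FOXO1 (chr13:40555667-40666641) controls glucose production and differentiation in many tissues and is held back by AKT in the same way. Its H460 control libraries held 3.09, 3.18 and 2.57 FPKM and the ISP-I libraries 8.44, 9.35 and 6.75 FPKM. The groups were apart, at a ratio of 2.78 and a log2 change of 1.21 (SE 0.140, limma adjusted p = 8.81e-05). A549 held less FOXO1 in both conditions, 0.708, 0.662 and 0.534 FPKM in controls and 1.23, 0.995 and 1.05 FPKM with ISP-I. That rise, a ratio of 1.72, passed the test with a log2 change of 0.36 (limma adjusted p = 0.00415) but was under the 2-fold of a call. The 4 groups did not overlap and ran from A549 controls over A549 with ISP-I and H460 controls to H460 with ISP-I.

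FOXO4 (chrX:71095851-71103532), which shares targets with FOXO1 and FOXO3, was the one factor of the 3 that fell. In H460 controls it measured 2.37, 2.69 and 2.02 FPKM, and with ISP-I 0.384, 0.586 and 0.871 FPKM, on 26 to 49 reads per library. No treated library reached the lowest control. The mean was 3.84 times lower and the log2 change -1.06 (SE 0.133, limma adjusted p = 0.000136). This change lies close to the fold required: without control library 2 it was -0.99 and without ISP-I library 1 it was -0.96, so the call ended and 5 of the 9 genes were called, while the p still passed. It was also under 2-fold, at -0.94, with FPKM divided by median-of-ratios factors. On scales that weigh low values more the fall was deeper. It was -1.83 with 0.1 FPKM added, and by limma voom on recovered reads -2.03 with library totals and -1.74 with median-of-ratios factors. In A549 the level was low throughout, 0.482, 0.61 and 0.536 FPKM in controls and 0.512, 0.32 and 0.497 FPKM with ISP-I. These overlapped, and the log2 change of -0.10 did not pass the test (limma adjusted p = 0.285, 95% interval -0.27 to 0.07). Treated H460 cells overlapped both A549 groups in FOXO4.

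TXNIP (chr1:145992435-145996579) encodes thioredoxin-interacting protein, an arrestin-like protein that binds and inhibits thioredoxin and lowers glucose uptake. Its H460 control libraries measured 18.6, 18.1 and 15.3 FPKM, and its ISP-I libraries 197, 186 and 176 FPKM. Treated cells lay far above the highest control library, at a ratio of means of 10.7 and a log2 change of 3.36 (SE 0.124, limma adjusted p = 3.38e-07). A549 controls were almost without TXNIP, with 0.117, 0.0944 and 0.0376 FPKM on 6, 5 and 2 reads. With ISP-I, A549 held 3.62, 2.65 and 3.46 FPKM on 150 to 195 reads. There was no overlap, and the log2 change was 1.96 (SE 0.0998, limma adjusted p = 2.71e-06).

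The A549 change of TXNIP depends on the scale, because its control level is far below the 1 FPKM that was added. The ratio of means was 39.1, with 13 reads in all behind the denominator, and the log2 change was 4.21 with 0.1 FPKM added and 5.24 by limma voom on the recovered reads. Treated A549 cells still held less TXNIP than untreated H460 cells, with no overlap. The 4 groups were all apart, in the order A549 controls, A549 with ISP-I, H460 controls and H460 with ISP-I.

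CITED2 (chr6:139371807-139374648) encodes a coactivator-binding protein that competes with the hypoxia factor HIF-1 for CBP and p300. In H460 it rose from 9.55, 10.7 and 11.3 FPKM in controls to 164, 158 and 206 FPKM with ISP-I. The ratio of 16.8 was the highest of the 9 genes in H460, with a log2 change of 3.94 (SE 0.139, limma adjusted p = 2.69e-07). In A549 it rose from 5.38, 6.18 and 5.73 FPKM to 20.3, 20.1 and 21.1 FPKM. The ratio was 3.56 and the log2 change 1.67 (SE 0.0720, limma adjusted p = 1.27e-06). No neighbouring groups overlapped in the order A549 controls, H460 controls, A549 with ISP-I, H460 with ISP-I.

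BCL6 (chr3:187721377-187745725), a transcriptional repressor best known from germinal centre B cells, moved in H460 by nearly as much as FOXO1. H460 controls held 1.78, 2.12 and 2.24 FPKM and treated cells 5.63, 6.08 and 4.85 FPKM. They did not overlap, and the mean was 2.70 times higher (log2 change 1.10, SE 0.122, limma adjusted p = 6.96e-05). In A549, 0.711, 0.607 and 1.0 FPKM in controls overlapped with 1.16, 1.03 and 0.951 FPKM under ISP-I. The log2 change there was 0.21 and did not pass (limma adjusted p = 0.0866). Without A549 control library 3, the highest of its group, it was 0.30 and passed (limma adjusted p = 0.00721), still under a 2-fold change. Only the 2 A549 groups, the lowest, overlapped.

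SESN3 (chr11:95165513-95232541), a sestrin that restrains mTORC1 and supports antioxidant defence, did not rise in H460. Its controls measured 2.94, 1.91 and 2.06 FPKM and its ISP-I libraries 1.44, 1.64 and 0.758 FPKM. All treated libraries were below all controls, and the log2 change of -0.54 passed the test (SE 0.178, limma adjusted p = 0.024) without reaching a 2-fold change. It no longer passed without control library 1, the highest of its group (log2 change -0.41, limma adjusted p = 0.0882). A549 had SESN3 on 2 to 22 reads per library, with means of 0.0504 FPKM in controls and 0.105 FPKM with ISP-I, in overlapping groups below both of H460.

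PIK3IP1 (chr22:31281594-31292534), a membrane protein that inhibits PI3K itself, was barely detected, with 3 to 15 reads in each library. Its means were 0.136 and 0.156 FPKM in H460 without and with ISP-I, and 0.205 and 0.154 FPKM in A549. The groups overlapped within each line, and A549 controls, the highest by mean, lay just above both H460 groups. The log2 change was 0.02 in H460 (limma adjusted p = 0.713, 95% interval -0.10 to 0.15) and -0.07 in A549 (limma adjusted p = 0.461, 95% interval -0.23 to 0.10).

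FBXO32 encodes atrogin-1, the muscle ubiquitin ligase subunit through which FOXO factors drive protein breakdown in wasting. H460 controls held 0.0094, 0.0356 and 0.0454 FPKM on 1, 4 and 5 reads, and treated H460 cells 0.507, 0.438 and 0.392 FPKM on 43 to 67 reads. In A549 it measured 0.523, 0.396 and 0.339 FPKM in controls and 1.08, 0.897 and 0.971 FPKM with ISP-I. Neither line's groups overlapped. The ratio of means was 14.8 in H460, on 10 reads in the denominator, and 2.34 in A549. On the log2(FPKM + 1) scale the changes were 0.49 (SE 0.0586, limma adjusted p = 0.000109) and 0.48 (limma adjusted p = 0.000735), so both passed the test and neither was called. With 0.1 FPKM added they were 2.07 and 1.07. Treated H460 cells overlapped untreated A549 cells in FBXO32.

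At any size of change, 8 of the 9 genes passed the test in H460, 6 higher and 2 lower, against 69.2% of all genes tested, 27.6% higher and 41.5% lower. In A549, 5 of 8 passed, all higher, against 57.5% of genes tested, 30.5% higher and 27% lower. Groups did not overlap for 8 of the 9 genes in H460 and for 5 of 8 in A549, against 72.7% and 65.5% of the genes tested.

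**Figure D2:**
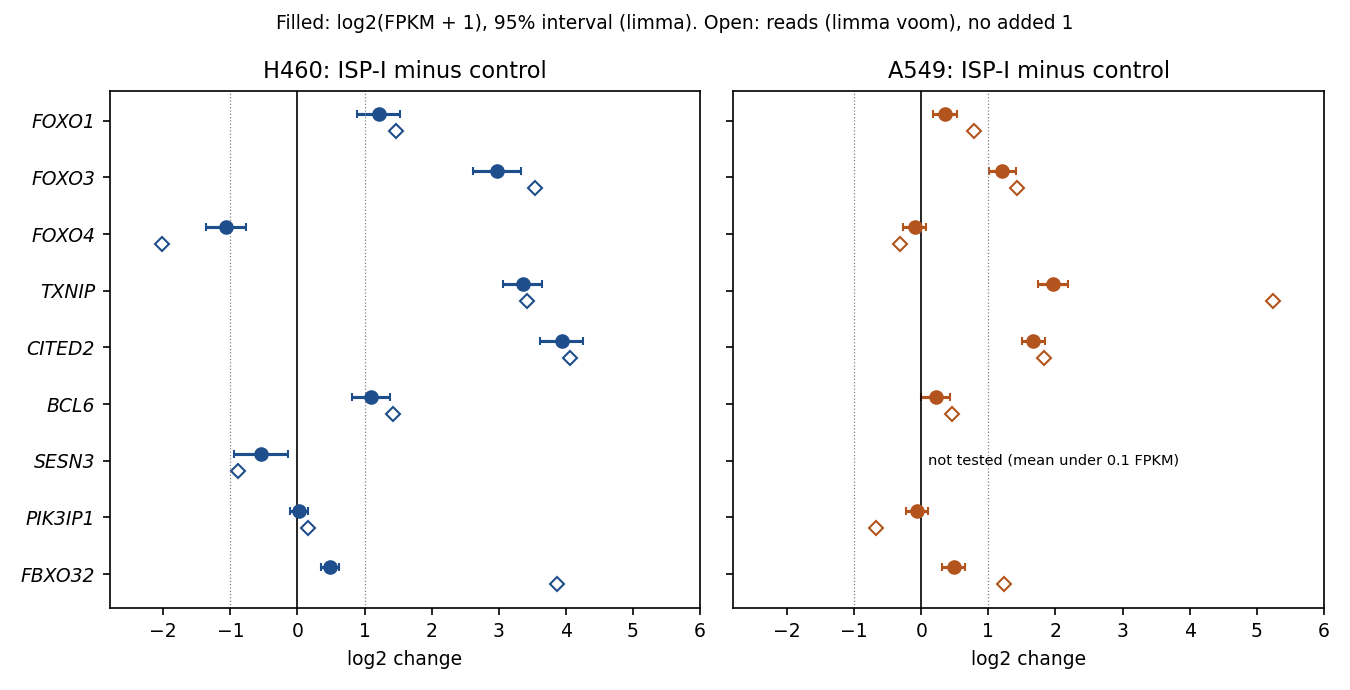
Log2 change with ISP-I in H460 and A549 for the 9 genes, with filled points and bars for limma's estimate and 95% interval, open diamonds for limma voom on the reads, which adds no 1 FPKM, and dotted lines at a 2-fold change. By the filled points, CITED2, TXNIP and FOXO3 exceed 2-fold in both lines, and FOXO1, BCL6 and, downward, FOXO4 in H460 only. FBXO32 exceeds 2-fold in both lines by the open diamonds only. The 2 estimates lie furthest apart for TXNIP in A549 and FBXO32 in H460, whose controls held few reads.

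Whether the lines differed in their response was tested with a line-by-treatment interaction fitted to all 12 libraries. The response of 3 genes was called larger in H460, where 16% of 13953 genes were called, 5.93% with a higher and 10.1% with a lower value in H460. Of these calls 37.0% were higher, and 61.1% were with median-of-ratios scaling. CITED2 differed by 2.27 on the log2 scale (SE 0.149, limma adjusted p = 2.4e-07), FOXO3 by 1.77 (SE 0.178, limma adjusted p = 6.57e-06) and TXNIP by 1.39 (SE 0.149, limma adjusted p = 1.02e-05). For CITED2 and FOXO3 the sign was the same under every setting tried. TXNIP reversed: with 0.1 FPKM added the difference was -0.78 (limma adjusted p = 0.0148), and by limma voom on recovered reads it was -1.81 (limma adjusted p = 0.00504), with 13 reads in all in the A549 controls. In FPKM the gain of TXNIP was larger in H460, and as a ratio it was larger in A549.

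At any size, 7 of the 9 genes differed in response, against 53.3% of the genes tested. Besides SESN3 (-0.62, limma adjusted p = 0.0209), these were the 3 above and FOXO1, FOXO4 and BCL6, which differed by less than a factor of 2 on the log2(FPKM + 1) scale. SESN3 did not hold under 5 other settings: its adjusted p was 0.0556 with no minimum, 0.0869 with median-of-ratios scaling, 0.0674 and 0.111 by limma voom with totals and with factors, and 0.0502 without H460 control library 1. The differences of FOXO1, FOXO4 and BCL6 were 0.86 (limma adjusted p = 0.000618), -0.97 (limma adjusted p = 0.000236) and 0.88 (limma adjusted p = 0.000335). For BCL6 the difference passed under every setting tried. For FOXO1 it was 0.69 and did not pass by limma voom with library totals (adjusted p = 0.0511). FOXO4 was called in this comparison when H460 control library 3, H460 ISP-I library 3 or A549 ISP-I library 2 was left out, with differences of -1.04, -1.08 and -1.03. It was also called with 0.1 FPKM added (-1.57) and by limma voom with library totals (-1.70) and with median-of-ratios factors (-1.39). With median-of-ratios scaling of FPKM, FOXO1 and BCL6 were called at 1.13 and 1.14, and by limma voom with those factors at 1.01 and 1.28. PIK3IP1 and FBXO32 did not pass (0.09 and 0.01, limma adjusted p = 0.403 and 0.962), but on scales that weigh low values more FBXO32 rose more in H460. Its difference was 1.0 with 0.1 FPKM added (limma adjusted p = 0.00658), and by limma voom on the reads 2.64 with library totals (adjusted p = 0.000855) and 2.96 with median-of-ratios factors (adjusted p = 0.000349), on 10 reads in the H460 controls.

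The untreated lines already differed in these genes. FOXO1, FOXO4, TXNIP and SESN3 were called, all higher in H460, against 14.4% of 13532 genes tested, 5.64% higher and 8.78% lower in H460. Untreated H460 held 17.3 FPKM of TXNIP and untreated A549 0.083 FPKM, a log2 difference of 4.08 (limma adjusted p = 1.13e-08) and the widest gap of the 9 genes. Mean SESN3 was 2.30 FPKM in H460 and 0.0504 FPKM in A549, a log2 difference of 1.64 (limma adjusted p = 5.02e-06). For FOXO1 and FOXO4 the ratios were 4.64 and 4.35. FOXO3, at 1.84 against 3.46 FPKM, and FBXO32, at 0.0301 against 0.419 FPKM, were lower in H460, and both passed the test at under the fold required. At any size, 8 of the 9 genes passed, all but PIK3IP1, against 60.2% of the genes tested. This comparison uses the same control libraries as the comparisons with ISP-I.

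The genes around the FOXO factors were read from lists written from general knowledge but with earlier results of these data known. Each list is given by its counts, which with the medians are a description and not a test of enrichment. Of 39 kinases and other genes of the PI3K/AKT input to FOXO, 35 were tested in H460, with 3 called higher and 8 called lower, while of 37 in A549 the counts were 1 and 3. The list's median log2 change was -0.01 in H460 and -0.04 in A549. AKT1, the kinase that phosphorylates FOXO factors, went in H460 from 23.3 to 4.40 FPKM (log2 change -2.16, limma adjusted p = 2.95e-06) and in A549 from 14.4 to 6.59 FPKM (log2 change -1.01, limma adjusted p = 1.09e-05). PIK3CB, a catalytic PI3K subunit, fell from 4.68 to 0.998 FPKM in H460 and was called there, and went from 6.74 to 3.41 FPKM in A549, a log2 change of -0.81 that passed the test only. MTOR passed in both lines at under 2-fold, at 12.6 and 6.16 FPKM in H460 and at 8.65 and 6.54 FPKM in A549.

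Not all of that list pointed the same way. MAPK9, the stress kinase JNK2, fell in H460 from 9.78 to 2.24 FPKM, and INPPL1, the lipid phosphatase SHIP2, from 23.9 to 7.69 FPKM. PRKAA2, a catalytic subunit of AMPK, rose in H460 from 4.25 to 18.1 FPKM, IRS1, the insulin receptor substrate, from 7.66 to 21.9 FPKM, and RICTOR, the subunit that defines mTORC2, from 1.57 to 4.93 FPKM. In A549, INPP5D, the lipid phosphatase SHIP1, rose from 0.0947 to 3.56 FPKM. SGK2, a kinase related to AKT, fell there from 3.85 to 1.01 FPKM and CDK2 from 8.41 to 3.62 FPKM.

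Of 30 proteins that bind, acetylate, deacetylate or degrade FOXO factors, all tested in both lines, H460 had 4 called higher and 7 lower, and A549 had 4 and 0. At any fold, H460 had 8 that passed higher and 14 lower, and A549 had 10 and 12, with medians of -0.17 and -0.04 on the log2 scale. SIRT1, the deacetylase that acts on FOXO3, rose in H460 from 6.30 to 44.8 FPKM and in A549 from 10.6 to 23.0 FPKM. HDAC5 rose from 2.51 to 26.2 and from 1.38 to 4.19 FPKM. In H460 the ubiquitin ligase subunit SKP2, which directs FOXO1 to the proteasome, went from 7.42 to 0.45 FPKM, a ratio of 16.5 and a log2 change of -2.54. TRIB2, a pseudokinase that holds FOXO3 down, went from 2.65 to 0.118 FPKM.

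HDAC4 and HDAC7, class IIa deacetylases like HDAC5, fell in H460 by 1.42 and 1.57 on the log2 scale. TRIB1, a pseudokinase related to TRIB2, rose there from 3.17 to 22.6 FPKM, and SFN, the 14-3-3 sigma protein, from 136 to 749 FPKM. TRIB3, another pseudokinase of this family and an inhibitor of AKT, was called in opposite directions: 34.1 to 16 FPKM in H460 and 28.8 to 68.2 FPKM in A549. MDM2, the ubiquitin ligase best known for degrading p53, was called in A549, 6.09 to 21.1 FPKM, with 4.08 and 3.78 FPKM in H460.

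Further genes that FOXO factors are known to induce were split by function. Among 20 tested genes of the cell cycle and death in H460, 7 were called higher and 4 lower, and among 19 in A549, 7 higher and 1 lower. The median log2 change was 0.37 in H460 and 0.36 in A549, beside -0.15 and 0.02 for all genes. The growth arrest gene GADD45A rose in H460 from 10.4 to 121 FPKM and in A549 from 22.7 to 136 FPKM. CDKN1A, the CDK inhibitor p21, rose from 7.89 to 63.1 and from 50.3 to 213 FPKM. GADD45B and GADD45G rose in H460 by 3.30 and 3.03 on the log2 scale. BBC3, the death gene PUMA, was called in A549 (4.03 to 15.7 FPKM) and passed at under 2-fold in H460 (1.23 to 2.96 FPKM). BTG2, an antiproliferative gene, likewise rose in A549 from 5.60 to 16.7 FPKM. Several of these, CDKN1A, GADD45A, BBC3 and BTG2 among them, are also p53 targets, and which factor acted was not tested.

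The genes of this list that fell were PLK1, TRADD, CCNB1 and RBL2 in H460. PLK1, a mitotic kinase, went in H460 from 68.2 to 9.57 FPKM and in A549 from 50.4 to 23.0 FPKM. CCNB1, the mitotic cyclin B1, went from 163 to 50.1 FPKM in H460, and in A549 from 154 to 89.2 FPKM, which passed at under 2-fold. TRADD, a death receptor adaptor, fell in H460 from 19.5 to 5.49 FPKM. RBL2, the pocket protein p130 that holds cells in quiescence, fell there from 6.08 to 1.85 FPKM.

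Genes for oxidant defence, metabolism and proteolysis were the longest list, with 41 tested in H460 and 43 in A549. In H460, 13 were called higher and 4 lower, and in A549, 7 higher and 6 lower. The medians were 0.23 and 0.30 on the log2 scale, beside -0.15 and 0.02 for all genes. GABARAPL1, an autophagosome protein, rose in H460 from 3.77 to 55.4 FPKM and in A549 from 1.96 to 11 FPKM. KLF6, a growth-restraining zinc finger factor, rose from 7.34 to 95.2 and from 24.3 to 66.5 FPKM. IL7R, the receptor of interleukin 7, rose in H460 from 2.89 to 36 FPKM. In A549, where it was at 0.308 and 0.290 FPKM, it did not pass. TP53INP1, a stress protein of autophagy, and LPIN1, a phosphatidate phosphatase, were called in A549 (1.09 to 6.84 and 3.44 to 9.35 FPKM).

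The same list held some of the deepest falls. ID1, an inhibitor of differentiation, stands on the list although its induction by FOXO factors is not settled. It went in H460 from 283 to 16.6 FPKM (log2 change -4.04, limma adjusted p = 1.06e-06) and in A549 from 205 to 44.2 FPKM. DDIT4, an inhibitor of mTORC1, went from 119 to 14.5 and from 31.6 to 13.9 FPKM. EIF4EBP1, the translation repressor 4E-BP1, went from 99.6 to 19.7 and from 122 to 51.2 FPKM. PRDX3, the mitochondrial peroxiredoxin, was called in H460 (97.5 to 25.5 FPKM) and passed at under 2-fold in A549. In A549, CAT, the catalase that breaks down hydrogen peroxide, fell from 22.6 to 6.45 FPKM, IGFBP1, an insulin-like growth factor binding protein and standard readout of FOXO1, from 13.2 to 4.67 FPKM, and ULK1, the kinase that starts autophagy, from 10.9 to 3.62 FPKM. With ID1 left aside, genes of this list thus stood among both the rises and the falls in each line.

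**Figure D3:**
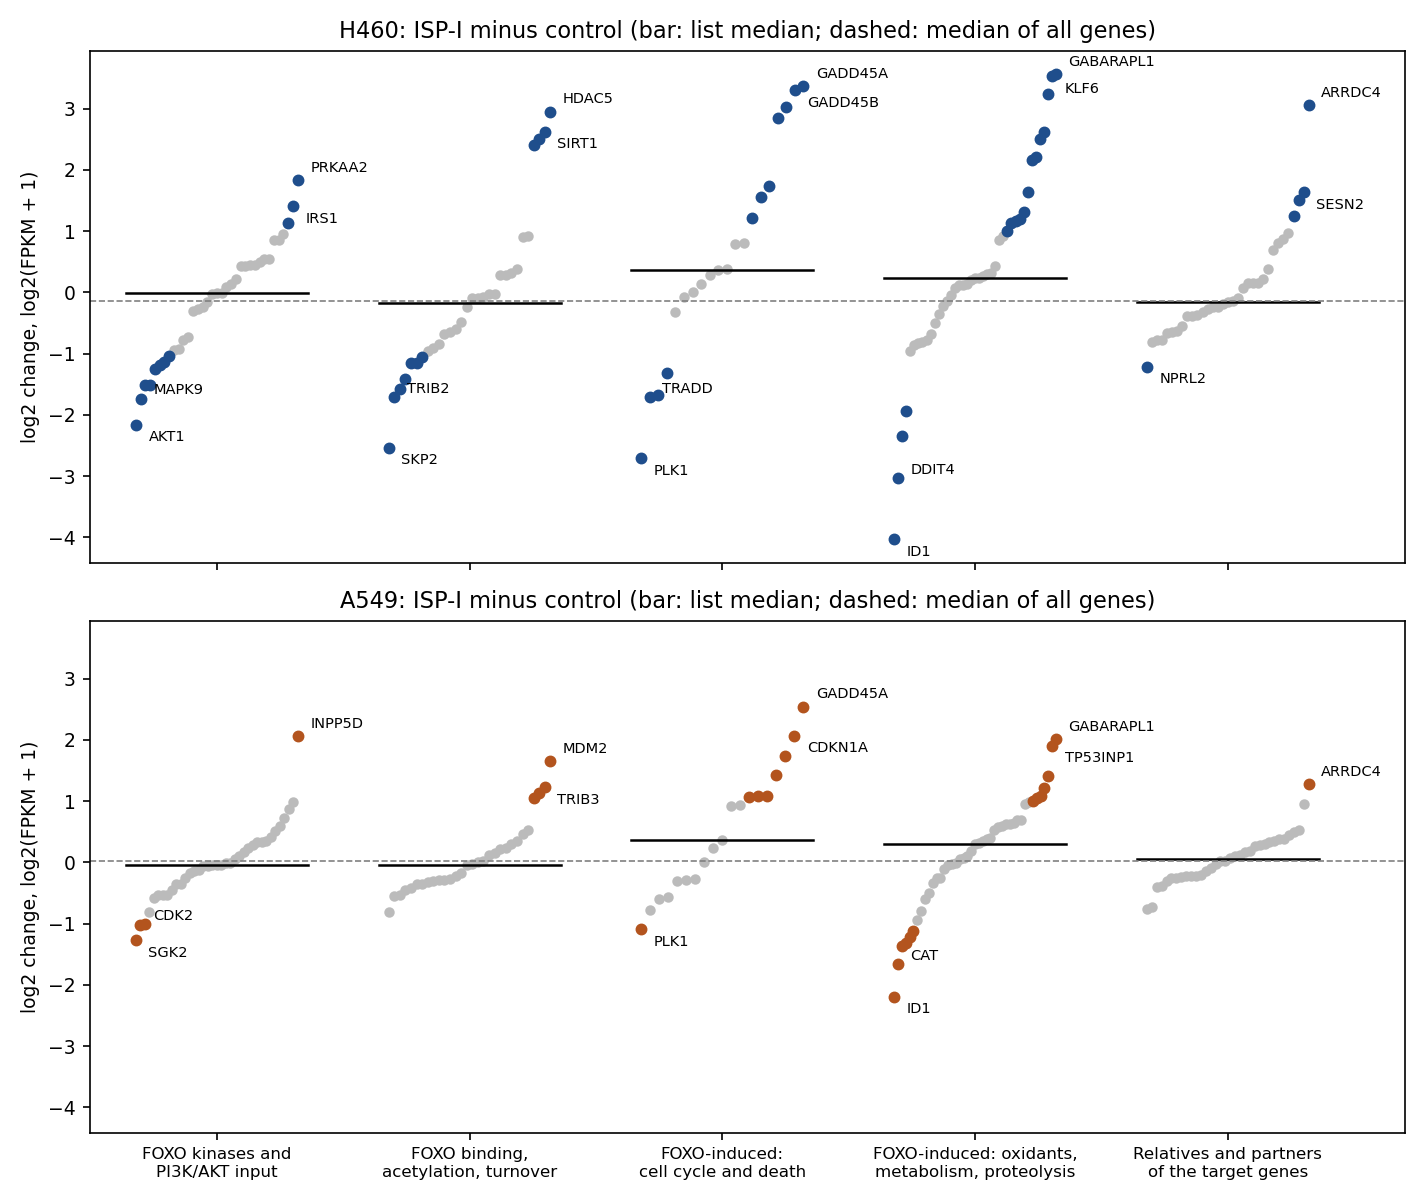
Log2 change of log2(FPKM + 1) with ISP-I for each tested gene of 5 lists, H460 above and A549 below, ordered by size within a list; coloured points were called, black bars are list medians and the dashed line is the median of all genes. Both directions occur in every list in H460, and the medians of the 2 lists of FOXO-induced genes lie above the line in both plots. The lists were chosen with earlier results of these data known, so their medians are a description only.

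Genes that FOXO factors are known to lower gave 1 called higher and 1 lower of 5 tested in H460 and 1 lower of 5 in A549. FOXM1, the forkhead factor that drives mitosis and competes with FOXO3 for sites, fell in H460 from 37.3 to 5.92 FPKM and in A549 from 37.0 to 13.4 FPKM. MYC was called higher in H460, 80.4 to 197 FPKM, and passed at under 2-fold in A549, 40.7 to 49.0 FPKM.

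The genes whose profile over the 12 libraries lay nearest to that of FOXO3 were sought among the 10593 genes that averaged 1 FPKM or more, by the root mean square difference of log2(FPKM + 1) after subtraction of each gene's mean. They were TIPARP at 0.114, SIRT1 at 0.165, SPTY2D1 at 0.193, NDRG4 at 0.200 and ZBTB21 at 0.213. TIPARP measured 6.34 and 59.9 FPKM in H460 without and with ISP-I and 11.9 and 24.4 FPKM in A549. SIRT1, also on the list of FOXO regulators, was thus the second nearest. Nearest to TXNIP were IGFN1 at 0.596, IFI16 at 0.765, DUSP2 at 0.769, TNFAIP3 at 0.780 and CD274 at 0.887. By their means, all of these were higher in untreated H460 than in untreated A549 and higher with ISP-I in both lines, TNFAIP3 with means of 20.5 and 273 FPKM in H460 and 1.94 and 18.2 FPKM in A549. The measure is not scaled to a gene's spread, so the distances from FOXO3 and from TXNIP cannot be set side by side. After subtraction of the mean, TXNIP ran from -3.43 to 4.14 and FOXO3 from -1.46 to 1.86. The likeness is a description over libraries of 4 groups, and no relation between these genes was tested.

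**Figure D4:**
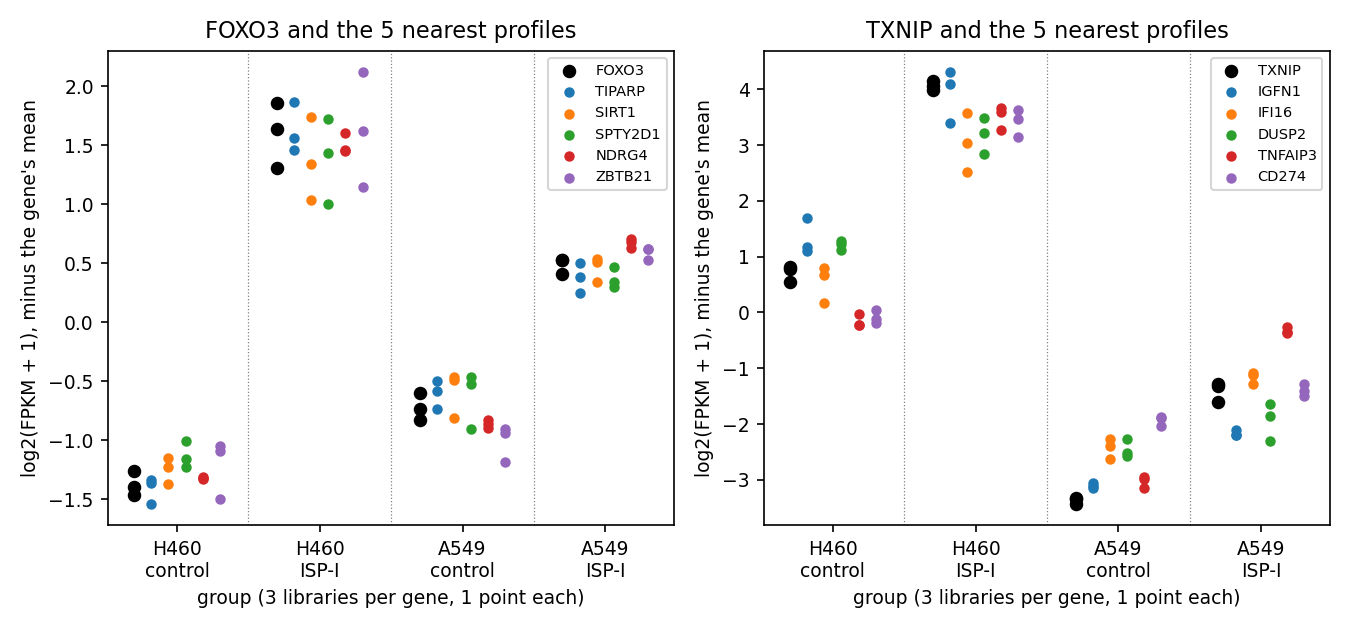
Log2(FPKM + 1) minus the gene's mean for FOXO3 (left) and TXNIP (right) and the 5 genes nearest to each, 1 point per library in 4 groups of 3. The genes near FOXO3 follow it from H460 controls at the bottom to H460 with ISP-I at the top. Those near TXNIP lie at up to 0.887 from it, and TXNIP spans a wider range than FOXO3.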

How the data were processed

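RNA from non-treated and ISP-I-treated H460 and A549 cells was sequenced as 150-base read pairs. Per the paper's methods and processing notes, the authors filtered reads (FastQC), mapped them to hg38 (HISAT2), counted them on genes (HTSeq 0.9.1) and deposited FPKM. Gene length, in another unit (bases), was deposited beside it. The annotation version and strand setting of the counting are not given in the sources used here. Multiplied by length, 100% of the FPKM values came to whole numbers of reads (tolerance 0.01 reads), which gave the depth and read numbers, and 4 lines without a gene were left out.

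Within each line, log2(FPKM + 1) of 3 treated and 3 control libraries was compared with limma 3.58.1 (R 4.3.3, with a mean-variance trend), keeping genes that averaged 0.1 FPKM or more, with Benjamini-Hochberg adjustment over all genes tested. The interaction used all 12 libraries, and untreated lines were compared likewise. The script was tested on simulated data. Alternatives were a pseudocount of 0.1, a minimum of 1 FPKM, no minimum, median-of-ratios scaling, limma voom on recovered reads, 1 fit of all libraries, calls at any fold, and leaving out each library.

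The 9 genes and the lists were chosen with earlier results of these data known. Named beside them were, per list and line, up to 4 called genes in each direction with the largest change and a mean of at least 1 FPKM, the other FOXO genes, the 5 nearest profiles of FOXO3 and TXNIP, and AKT1, PIK3CB, MTOR, EIF4EBP1, CDKN1A, GADD45A, BBC3 and CCNB1, which the study named. The rule also names KRT19 and CDH1 among the markers. Python 3.11.15 (pandas 2.3.3, numpy 2.4.6) was used for tables and figures.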

Additional observations from a re-analysis of the deposited data

Results flagged for a closer look

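The responses of 3 genes to ISP-I differed between the lines by the test of the difference itself, which is what brought them up here. On the log2(FPKM + 1) scale the response in H460 exceeded that in A549 by 2.27 for CITED2, by 1.77 for FOXO3 and by 1.39 for TXNIP. In each case all 3 treated libraries lay above all controls in both lines, so it was the size and not the direction that differed. For CITED2 the difference lay between 2.15 and 2.58 over the settings tried and for FOXO3 between 1.64 and 2.42. For TXNIP it lay between -1.81 and 1.75, negative with a pseudocount of 0.1 and by limma voom on the reads.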

How the results depend on the processing

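Of 372 values of the 9 genes under other settings, 351 kept direction and side of the adjusted p threshold, whatever the fold, 4 newly passed it, 10 no longer passed it and 7 turned sign. The difference between lines in TXNIP turned to -0.78 with a pseudocount of 0.1, -1.81 by limma voom with library totals and -1.49 with median-of-ratios factors. Under those 3 settings the difference in FBXO32, 0.01 on the main scale, kept its sign and newly passed, at 1.0, 2.64 and 2.96. It turned to -0.0092 without H460 control 1, -0.025 without H460 ISP-I 1, -0.047 without A549 control 1 and -0.026 without A549 ISP-I 2 (range over libraries left out -0.047 to 0.046). With a pseudocount of 0.1, voom with totals, voom with factors, and any fold, the genes called were 5786, 6157, 5966 and 9287 in H460 (main 3456), 2398, 2701, 2709 and 7887 in A549 (main 1056), 4239, 4301, 3929 and 7437 for the difference (main 2234), and 3614, 3836, 3863 and 8145 between untreated lines (main 1951). Any fold gave 5 of the 9 genes in A549 and 8 between untreated lines. For the difference, 5 were called with a pseudocount of 0.1, with scaled FPKM and by voom with totals, and 7 by voom with factors or at any fold. Leaving out each library gave 3292 to 3752 genes in H460, 1042 to 1096 in A549, 2035 to 2647 for the difference and 1923 to 2069 between untreated lines, and 5 to 6, 3 to 3, 3 to 4 and 4 to 4 of the 9. Where 2 libraries remained in a group, limma pooled the spread.

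Dividing FPKM by median-of-ratios factors moved the median log2 change of all genes from -0.15 to 0.01 in H460 and from -0.16 to 0.02 for the difference. The share of calls that were higher moved from 40.8% (1409 higher, 2047 lower) to 56.4% (1957 and 1511) in H460, and from 37.0% to 61.1% for the difference. On that scale FOXO4 in H460 changed by -0.94 and was no longer called. SESN3 in H460 lost its adjusted p with scaled FPKM (0.0957), with no minimum (0.1) and by voom with factors (0.0757). Counting alone limits PIK3IP1, SESN3 in A549, TXNIP in A549 controls and FBXO32 in H460 controls, which rest on 15 reads or fewer per control library. No paired analysis was possible because the columns carry the line, the treatment and a number that does not match the replicate numbers of the labels.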

Other observations

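Relatives and partners of the target genes were read as a further list. Of 33 tested in H460, 4 were called higher and 1 lower, and of 34 in A549, 1 higher and 0 lower, with medians of -0.16 and 0.05 beside -0.15 and 0.02 for all genes. ARRDC4, an arrestin-domain protein and the closest relative of TXNIP, rose with it in both lines, in H460 from 1.90 to 23.0 FPKM (log2 change 3.05, limma adjusted p = 4.03e-07) and in A549 from 0.248 to 2.04 FPKM (log2 change 1.28, limma adjusted p = 5.43e-06). ARRDC3, of the same family, rose in H460 from 7.01 to 18.4 FPKM and was at 13.0 and 11.6 FPKM in A549. The sestrins parted: SESN2, the stress-induced sestrin, rose in H460 from 4.54 to 16.2 FPKM and passed at under 2-fold in A549 (5.34 to 11.2 FPKM), while SESN3 was lower in H460. HIF1A, whose protein competes with CITED2 for coactivators, was called in H460, from 21.9 to 66.7 FPKM, and in A549 stood at 43.9 and 51.8 FPKM in overlapping groups. NPRL2, a subunit of the GATOR1 complex that inhibits mTORC1, fell in H460 from 9.21 to 3.45 FPKM.

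Among the markers, KRT19, a keratin of simple epithelia, was called lower in H460 (122 to 56.9 FPKM) and CDH1 in A549 (4.90 to 0.756 FPKM). KRT18, another keratin of the same list, went the other way in H460, with means of 70.3 and 134 FPKM, and was not called. FOXO6, the remaining FOXO gene tested, had means of at most 0.392 FPKM and did not pass in A549 (limma adjusted p = 0.442).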
